A study of Mus musculus with 9 samples.

Results

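The reads of 10 genes of the epidermis, the keratin-making outer layer of skin, were followed through 9 RNA libraries of injured mouse muscle. The genes were Krt5, Krt14, Krt1, Krt10, Krt77, Flg2, Lor, Dsg1a, Dsp and Sfn, which are 10 of the 54532 genes in the count table. They were chosen by their read counts per library, which were high in 1 young library, young PBS 2, against the other 8. Their height in that library is therefore described without a test.

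Keratins are the filament proteins of epithelial cells, and each filament pairs a type I with a type II keratin. In the epidermis, dividing cells of the basal layer make Krt5 with Krt14, and cells that have left that layer make Krt1 and Krt10 instead. As these cells move outwards they make filaggrin-family proteins and loricrin, which are built into the cornified envelope, the tough shell of the dead surface cell. Desmosomes, the rivet-like junctions that hold these cells together, contain desmogleins and desmoplakin. Skeletal muscle fibres form no such layers.

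The samples were C57/BL6J mice whose tibialis anterior muscle, in the lower leg, was injured with barium chloride, which destroys fibres and starts regeneration. Young mice (4 months) and old mice (24 months) then received 3 injections of PBS into the muscle, and a further old group received recombinant METRNL (rMETRNL), the Meteorin-like protein, on the same schedule. Each group had 3 libraries, numbered 1, 2 and 3 for young PBS and old rMETRNL and 2, 3 and 4 for old PBS. The results of the study give whole muscle at day 8. The labels instead give a digested and strained cell suspension, and the series text gives day 4. No sex is given for these libraries, and no label sets young PBS 2 apart from the other young libraries. Nothing in the labels says that the libraries came from separate mice, so p-values measure the spread between these libraries.

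The libraries held between 16238700 and 22522560 counts, and young PBS 2 held 17988044. A count of 3, taken as the floor of detection, corresponded to 0.131 to 0.202 CPM, which scales each count to its library total and edgeR's TMM factor. Levels are in this unit unless raw counts are named, and intervals and floors cover counting error only. By summed level, the muscle markers of young PBS 2 lay among those of the other libraries. Among 10 muscle fibre genes taken singly, only Myh2 was highest in young PBS 2, at 1495 CPM against at most 1354 CPM elsewhere. The summed level of these 10 genes in young PBS 2 was 127300 CPM, inside the range of 86270 to 152900 CPM in the other 8 libraries. The same held for lists of new muscle fibre, fibro-adipogenic cell, macrophage and endothelial genes, none of which had a gene at least 4-fold above every other library in young PBS 2.

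The stretches before the start sites of 5 of the genes are shown because the genes share their high library while lying on 3 chromosomes. They are the type II keratins Krt5 and Krt77, the type I keratin Krt10, and Flg2 and Lor of the cornified envelope. Each is the 120 bases before the RefSeq start on GRCm38.p6, read 5′ to 3′ on the strand of the gene. Capitals mark matches on either strand to TATAAA (the TATA box), TGANTCA (the AP-1 site), AACCNGTT (the grainyhead-like site) or CACCC (the KLF and SP type).
Krt5, chr15:101712906-101713025, minus strand: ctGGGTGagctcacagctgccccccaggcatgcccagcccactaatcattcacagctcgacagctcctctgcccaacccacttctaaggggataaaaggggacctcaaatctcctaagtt
Krt77, chr15:101869706-101869825, minus strand: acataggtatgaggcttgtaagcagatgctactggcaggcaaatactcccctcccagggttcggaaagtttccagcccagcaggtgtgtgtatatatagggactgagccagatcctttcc
Krt10, chr11:99389365-99389484, minus strand: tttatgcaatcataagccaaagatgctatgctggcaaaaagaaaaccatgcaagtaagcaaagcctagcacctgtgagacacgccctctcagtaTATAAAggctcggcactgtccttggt
Flg2, chr3:93197153-93197272, plus strand: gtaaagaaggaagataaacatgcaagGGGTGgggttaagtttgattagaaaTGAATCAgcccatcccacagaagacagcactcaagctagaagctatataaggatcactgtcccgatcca
Lor, chr3:92083143-92083262, minus strand: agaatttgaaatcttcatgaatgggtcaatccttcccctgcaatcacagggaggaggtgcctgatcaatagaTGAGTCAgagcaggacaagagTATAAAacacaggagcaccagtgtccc

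Windows of 300 bases, from 250 before to 50 after the start, were found in the RefSeq table for 8 of the 10 genes, and Krt1 and Dsg1a are named only. The window of Krt14 starts inside the annotated gene and is not shown. TATAAA lay 26 bases before the start of Krt10 and 27 bases before that of Lor, on the gene's strand, a placing (20 to 40 bases before the start) held by 1.99% of 32851 windows. TGANTCA lay 69 bases before the start of Flg2 and 48 bases before that of Lor, and 7.81% of all windows held it. AACCNGTT was found in the window of Sfn, 184 bases before the start on the opposite strand, against 2.09% of all windows. CACCC was found in the windows of Krt5, Krt14, Krt10, Flg2, Dsp and Sfn, and in 57.5% of all windows. None of these letter runs was common to the 5 genes shown, and a match is a description of the letters, not of binding. Only these exact letters were searched, so variants of a site stay unmarked.

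In young PBS 2 the 10 genes together held 3468 counts, 0.0193% of the library. The other libraries held 124 and 86 counts (young PBS 1 and 3), 56, 176 and 121 (old PBS 2, 3 and 4) and 130, 99 and 96 (old rMETRNL 1, 2 and 3). On the CPM scale the sum was 192.3 in young PBS 2 and 3.77 to 7.69 elsewhere, which placed young PBS 2 at 25.02 times the highest other library, old PBS 3. By CPM, young PBS 2 was the highest of the 9 libraries for all 10 genes, as for 4.53% of 15811 genes with at least 20 counts in any library. All 10 genes had counts in it, whereas 3 to 6 of them had any count in each of the others. For 9 of the 10 genes the level in young PBS 2 was at least 4-fold that of every other library, and the exception was Sfn. Over all genes with at least 20 counts in young PBS 2, 0.437% did the same (61 of 13966). The rule used these values, so nothing is read from either share. In bulk RNA, more cells of a type and more RNA per cell cannot be told apart.

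**Figure D1:**
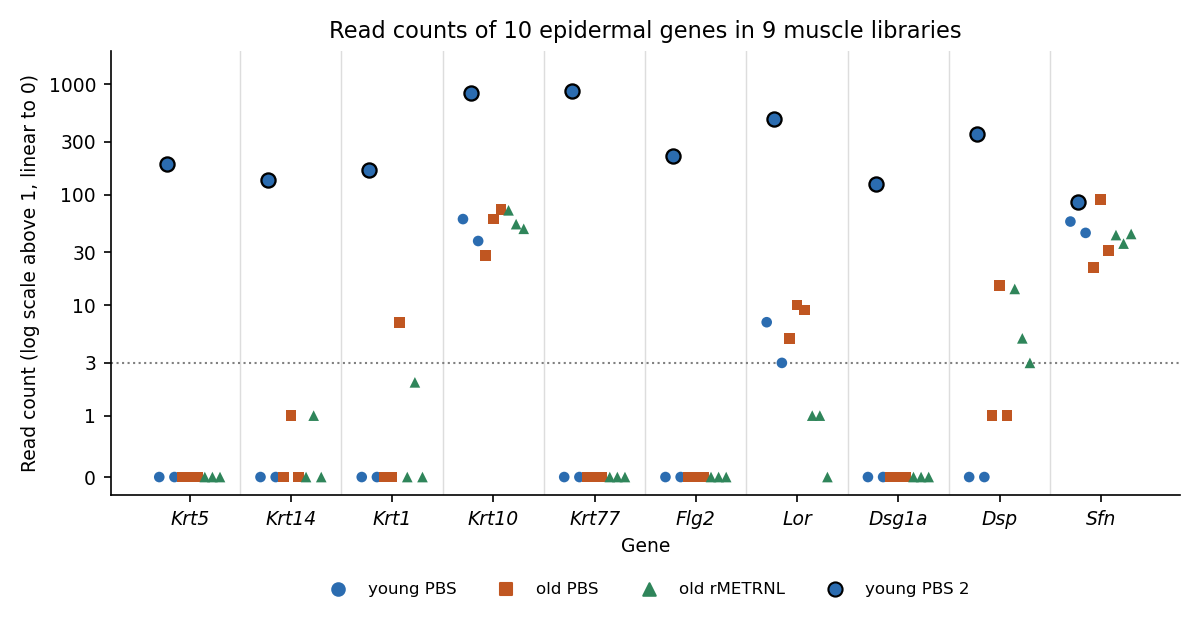
Read counts of the 10 genes (horizontal axis) in each of the 9 libraries, on a vertical axis that is logarithmic above 1 and linear down to 0, with young PBS in blue, old PBS in orange, old rMETRNL in green and young PBS 2 outlined in black. The dotted line marks the floor of 3 counts. Young PBS 2 lies far above all other points for 9 genes, and for Sfn its 86 counts lie beside the 90 counts of old PBS 3.

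The basal keratins were seen almost exclusively in that library. Krt5 (chr15:101707070-101712898, minus strand, 9 exons), the type II keratin of dividing basal cells, had 188 counts (95% Poisson interval 162.1 to 216.9) in young PBS 2 and 0 in every other library. Its level of 10.4 CPM was at least 51.7-fold higher than in any other library, with the others set to the floor of 3 counts per library. Krt14 (chr11:100203162-100207548, minus strand, 8 exons), its type I partner, had 136 counts (114.1 to 160.9) there, 1 count each in old PBS 3 and old rMETRNL 2, and 0 in the other 6. Neither basal keratin therefore passed the floor outside young PBS 2. The level of Krt14 there was 7.54 CPM, and its ratio to old rMETRNL 2, the highest other library, was 133 (exact counting interval 23.5 to 5307).

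The suprabasal keratins made up the largest share of the counts. Krt77 (chr15:101858731-101869705, minus strand, 9 exons), a type II keratin of differentiating skin cells whose gene lies next to Krt1, had 872 counts (815.1 to 931.9) in young PBS 2 and 0 in all 8 others, a level of 48.4 CPM and at least 239.6-fold higher. This was the highest of the bounds among the 10 genes, but bounds set by the floor cannot rank the gaps. Krt1 (chr15:101845426-101850794, minus strand, 9 exons), the type II keratin of the spinous layer, had 168 counts (143.6 to 195.4), 7 counts in old PBS 4 and 2 in old rMETRNL 2, with 0 in the other 6. Its 9.32 CPM in young PBS 2 was 21.2-fold above old PBS 4, the highest of the rest.

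Krt10 (chr11:99385254-99389364, minus strand, 8 exons), the type I partner of Krt1, differed from the other keratins in being detected in every library. It had 838 counts (782.2 to 896.7) in young PBS 2, 60 and 38 counts in young PBS 1 and 3, 28, 60 and 73 in old PBS 2, 3 and 4, and 72, 54 and 49 in old rMETRNL 1, 2 and 3. Young PBS 2 was the high library and the other 8 lay close together, between 1.88 and 4.59 CPM with a median of 2.84. The level of 46.5 CPM in young PBS 2 was 10.1-fold above the highest other library and 16.4-fold above their median. An annotated antisense gene on the opposite strand of Krt10, Gm11940, had 0 counts in young PBS 2 and at most 6 elsewhere, and the strand setting of the counting is not given in the sources used here.

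The cornification genes showed both kinds of pattern. Flg2 (chr3:93197278-93221391, plus strand, 6 exons), a filaggrin-family protein of the granular layer, had 222 counts (193.8 to 253.2) in young PBS 2, 12.3 CPM, and 0 in all 8 others, at least 61.0-fold higher. Lor (chr3:92080271-92083142, minus strand, 2 exons), which encodes loricrin, had 480 counts (438.0 to 524.9) in young PBS 2, 7 and 3 in young PBS 1 and 3, 5, 10 and 9 in old PBS 2, 3 and 4, and 1, 1 and 0 in old rMETRNL 1, 2 and 3. Its 26.6 CPM in young PBS 2 was 47.0-fold above old PBS 4, the highest other library. A trace of Lor above the floor was thus present in young PBS 1 and in all 3 old PBS libraries, and in none of the old rMETRNL libraries.

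The desmosome genes were split in the same way. Dsg1a (chr18:20310811-20343350, plus strand, 15 exons), a desmoglein of the upper epidermis, had 125 counts (104.0 to 148.9), 6.93 CPM, in young PBS 2 and 0 in all others, at least 34.3-fold higher. Dsp (chr13:38151294-38198577, plus strand, 24 exons), desmoplakin, which ties desmosomes to keratin filaments and is also made in heart and simple epithelia, had 353 counts (317.1 to 391.8) in young PBS 2, 0 in young PBS 1 and 3, 1, 15 and 1 in old PBS 2, 3 and 4, and 14, 5 and 3 in old rMETRNL 1, 2 and 3. Its 19.6 CPM in young PBS 2 was 26.1-fold above old rMETRNL 1. Low counts of Dsp outside young PBS 2 were therefore found in old libraries of both treatments and in neither of the other young libraries.

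Sfn (chr4:133600556-133602168, minus strand, 1 exon) encodes stratifin, a 14-3-3 protein abundant in keratinocytes and induced by p53 in many cell types. It had 57, 86 and 45 counts in young PBS 1, 2 and 3, 22, 90 and 31 in old PBS 2, 3 and 4, and 43, 36 and 44 in old rMETRNL 1, 2 and 3. Its level of 4.77 CPM in young PBS 2 was 1.21-fold that of old PBS 3 and 2.20-fold the median of the other 8, and its raw count there was below that of old PBS 3. Young PBS 2 held 18.9% of all Sfn counts (95% Wilson interval 15.6 to 22.8%), compared with every count of Krt5, Krt77, Flg2 and Dsg1a, 98.5% for Krt14, 94.9% for Krt1, 93.0% for Lor, 90.1% for Dsp and 65.9% for Krt10. Without Krt10 and Sfn, 2544 of the 2630 counts of the remaining 8 genes lay in young PBS 2 (96.7%, 96.0 to 97.3%), and the other libraries held 3 to 26 each.

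Within young PBS 2, the counts of the 10 genes were weighted towards the layers above the basal layer. Suprabasal keratins held 54.2% of the 3468 counts (Wilson interval 52.5 to 55.8%), cornification genes 20.2% (18.9 to 21.6%), desmosome genes 13.8% (12.7 to 14.97%), basal keratins 9.34% (8.42 to 10.4%) and Sfn 2.48% (2.01 to 3.05%). Of the 2202 counts of keratins among the 10 genes, 1878 were suprabasal (85.3%, 83.7 to 86.7%). Their ratio to the basal keratins Krt5 and Krt14 was 5.80 to 1, and Krt15, with 122 counts in young PBS 2, was left out. These shares describe 1 library and have no replicate.

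Levels were compared between genes per kilobase of the longest basic protein-coding transcript. In young PBS 2, Krt10 was highest at 22.2 CPM per kilobase (Poisson interval 20.7 to 23.8), followed by Krt77 at 16.5 (15.4 to 17.6) and Lor at 14.96 (13.7 to 16.4), and the intervals of Krt77 and Lor overlapped. Krt5 at 4.75 (4.09 to 5.48), Krt14 at 4.44 (3.73 to 5.26) and Krt1 at 3.80 (3.24 to 4.42) formed a lower tier in which neighbouring intervals overlapped, and that of Krt1 overlapped the interval of Sfn at 2.96 (2.37 to 3.65). Dsp at 2.04 and Flg2 at 1.76 also overlapped, and Dsg1a was lowest at 1.22 CPM per kilobase. Summed by keratin type, the type II genes Krt5, Krt1 and Krt77 reached 25.04 CPM per kilobase and the type I genes Krt14 and Krt10 reached 26.6, a ratio of 0.940. The basal pair, Krt5 over Krt14, stood at 1.07, and Krt1 with Krt77 over Krt10 at 0.914. Keratin families share sequence. Among type I relatives of Krt14, Krt15 had 122 counts in young PBS 2, close to the 136 of Krt14, while Krt17 had 34 and Krt16 1. Among type II keratins related to Krt5, Krt79 had 39 counts, Krt6a 3 and Krt6b 0. Of the relatives of Dsg1a, Dsg1b had 13 counts and Dsg1c 4, so reads split between copies remain uncertain at this scale.

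Other epidermal genes stood apart in the same library. Outside the 10 genes, 52 genes with at least 20 counts were at least 4-fold above every other library in young PBS 2. Of these, 21 belonged to 6 epidermal lists of 83 genes. Those lists were chosen with earlier results of these data known, so nothing is read from this overlap. All 61 genes of the full set were protein-coding, 38 of them had no more than 3 counts in any other library, and 28 had 0 counts in all 8. Together they held 6813 counts, 0.0379% of the library. The same criterion gave 1 and 3 genes in young PBS 1 and 3, 22, 7 and 31 in old PBS 2, 3 and 4, and 2, 0 and 1 in old rMETRNL 1, 2 and 3. Just inside the 4-fold limit lay Col17a1, a collagen of the basal cell's anchor to the basement membrane, at 4.13, and just outside it lay Elovl4, which makes very long fatty acids of the skin barrier, at 3.86. Both were chosen after their values were seen.

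**Figure D2:**
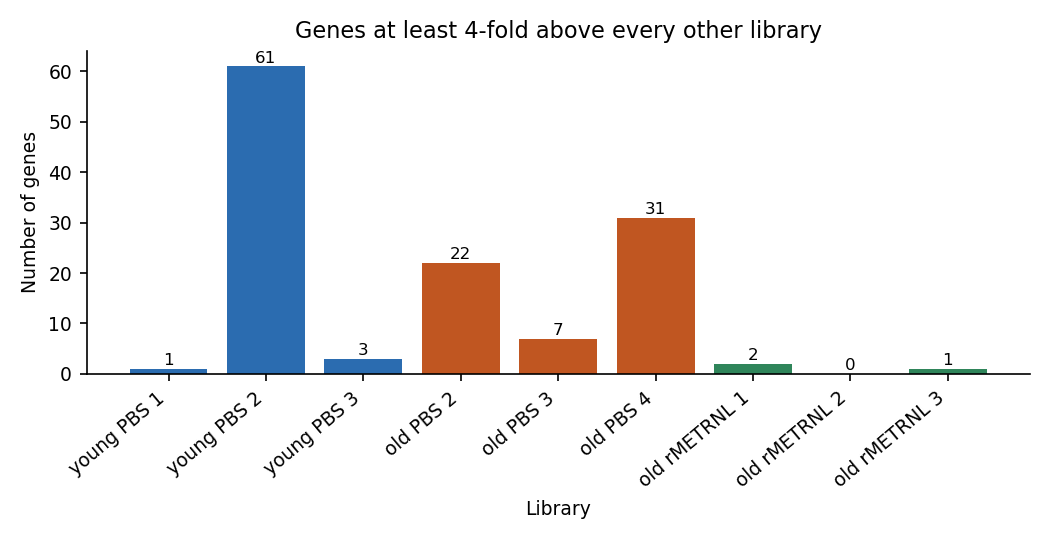
Number of genes with at least 20 counts in a library and a level at least 4-fold above every other library (vertical axis), for each of the 9 libraries (horizontal axis), with young PBS in blue, old PBS in orange and old rMETRNL in green. Young PBS 2 has 61 such genes, 9 of them among the 10 described here, and the next library, old PBS 4, has 31.

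The 15 genes that came closest to the pattern outside the 10, ranked by the ratio of young PBS 2 to the highest other library, were led by Lce1m, a late cornified envelope gene, with 162 counts in young PBS 2 and 0 elsewhere (at least 44.5-fold). Krt15, a type I keratin of basal and follicle stem cells, followed with 122 counts (at least 33.5-fold), and Dsc3, a desmocollin of the lower epidermis, with 120 (at least 33.0-fold), both at 0 elsewhere. Spink5, which encodes an inhibitor of skin proteases, had 104 counts (28.6-fold) and Calm4, a calmodulin-like gene of the epidermis, had 101 (27.7-fold), with the other libraries, at up to 3 counts, set to the floor. Pof1b, Dsc1, Psapl1, Kprp, Dmkn, Pla2g2f, Klk7, Crct1, Lgals7 and Perp completed the 15, with 55 to 408 counts and ratios from 13.2 to 25.5 on the same basis. Of these 10, the proteins of Dsc1 and Perp belong to desmosomes, Klk7 is a protease of surface-cell shedding, and Dmkn is secreted by suprabasal cells.

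Several of these genes lay beside the 10. Of the 52, 16 lay within 1 Mb of 1 or more of the 10, with 9 near Flg2 on chromosome 3, 7 of them also near Lor, in the cluster known as the epidermal differentiation complex. Another 3 lay near Krt14 and Krt10 on chromosome 11 and 2 near Krt5, Krt1 and Krt77 on chromosome 15, the clusters of type I and type II keratins. Dsc1 and Dsc3 lay near Dsg1a, and none lay near Dsp or Sfn. Of the 167 other genes within 1 Mb and with at least 20 counts in young PBS 2, 9.58% were 4-fold above every other library. The share was 0.261% of 13784 genes elsewhere. The choice of the 10 genes, the minimum count and the 4-fold limit all rest on young PBS 2, so nothing is read from this contrast.

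The lists, which hold genes known for each layer or cell type, differed widely in whether they followed the 10 genes. They were chosen with earlier results of these data known. Their minimum of 10 counts is lower than the 20 behind the share of 0.437% over all genes, so that share is not a matched background for them. Among 13 epidermal proteases and barrier lipid enzymes, the summed level was 20.6 CPM in young PBS 2 and 1.13 to 3.77 CPM elsewhere, and 4 of the 9 genes with at least 10 counts were 4-fold above every other library. Spink5 and Klk7 were among these 4, whereas Klk8 (24 counts, 1.16-fold over the highest other library) was not. Among 6 keratins of activated skin and the outer sheath of the follicle, the sum was 4.33 CPM against 0 to 0.321 CPM. Krt79 (39 counts, 8.08-fold) and Krt17 (34 counts, at least 9.34-fold) carried it, and Krt75 and Krt6a had 1 and 3 counts.

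Among 24 cornified envelope genes, 13 had at least 10 counts in young PBS 2, 7 of these were 4-fold above every other library, and 7 genes were at 0. The sum was 49.0 CPM against 14.6 to 36.7 CPM. The 4 genes with the most counts over all libraries were Cst6 (0.383-fold of the highest other library), Ppl (1.59-fold), Evpl (1.30-fold) and Asprv1 (4.65-fold), and Cst6, a protease inhibitor made in many tissues, did not follow the pattern. Among 13 desmosome and adhesion genes the sum was 125 CPM against 69.7 to 87.8 CPM, and 4 of 9 genes were 4-fold above. Perp (254 counts, 13.2-fold) was one of them, whereas Jup, the plakoglobin of all desmosomes and adherens junctions, had 1460 counts and 1.06-fold, Pkp2 0.573-fold and Pkp3 1.32-fold.

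Lists whose leading genes are also used outside skin moved less. The spinous and granular list of 16 genes summed to 193.5 CPM against 93.3 to 161.8 CPM, with 3 of 13 genes 4-fold above. Its leading genes Notch3, Fabp5 and Klf4 lay below the highest other library (0.890-, 0.767- and 0.642-fold), and Sbsn, a secreted protein of suprabasal cells, was 2.38-fold above it. The basal layer list of 11 genes summed to 757.8 CPM, inside the range of 401.6 to 889.5 CPM of the other libraries. Dst (0.809-fold), Itga6 (0.851-fold), Trp63 (0.667-fold) and Itga3 (0.839-fold), the genes of that list with the most counts, did not follow Krt5 and Krt14. Of its 10 genes with at least 10 counts, 2 were 4-fold above every other library, Krt15 (122 counts, at least 33.5-fold) and Col17a1 (156 counts, 4.13-fold).

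**Figure D3:**
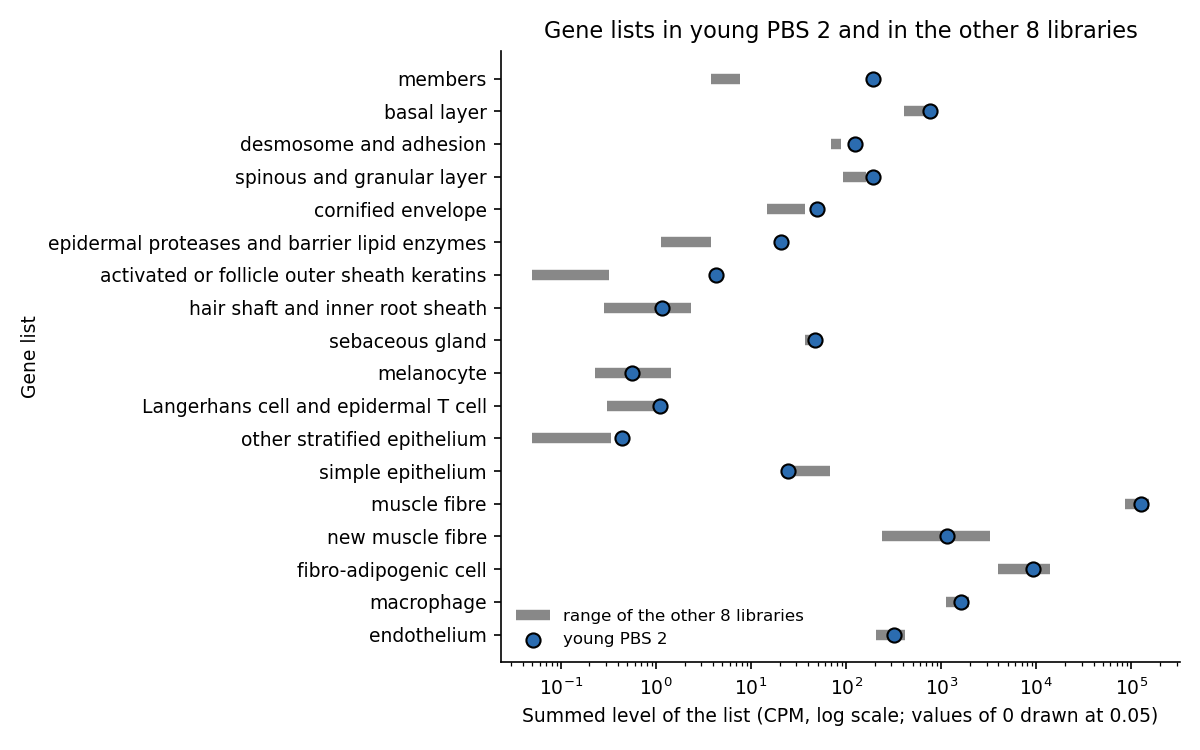
Summed level in CPM on a logarithmic horizontal axis for the 10 genes (named members) and 17 gene lists, with young PBS 2 as a blue point and the range of the other 8 libraries as a grey bar (sums of 0 are drawn at 0.05). The 10 genes stand at 192.3 CPM against a highest other value of 7.69 CPM, and the lists of muscle, stroma, hair shaft, sebaceous gland and melanocyte stay inside or at the edge of the grey bars.

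As summed lists, markers of the hair shaft, the sebaceous gland, melanocytes and the immune cells of the epidermis did not stand apart in young PBS 2. The 17 hair shaft and inner root sheath genes found in the table summed to 1.16 CPM against 0.282 to 2.36 CPM in the other libraries, none reached 10 counts in young PBS 2 and 11 were at 0. Padi3, Krt33b and Tchh had 6, 4 and 4 counts there, and Krt31 had 0. The 11 sebaceous gland genes summed to 47.1 CPM against 37.0 to 54.4 CPM with none 4-fold above. Soat1 alone gave 28.3 CPM of that sum, and Awat1 had 5 counts in young PBS 2 and 0 in all others. The 7 melanocyte genes summed to 0.555 CPM against 0.226 to 1.44 CPM with Tyr and Tyrp1 at 0. The 4 genes found of the Langerhans and epidermal T cell list summed to 1.11 CPM against 0.306 to 1.13 CPM. Among 6 keratins of other stratified epithelia the sum was 0.444 CPM against 0 to 0.336 CPM, with Krt13 at 1 count and Krt4 at 5. Of 9 simple epithelium genes, Krt18 and Krt8 lay at 0.256- and 0.404-fold of the highest other library, whereas Krt23 had 31 counts, a ratio of 13.7 to old PBS 4 (exact counting interval 3.48 to 118), and Cldn4 had 20 counts and 3.63-fold. Krt23 was the gene of this list that passed the 4-fold limit, 1 of 4 with at least 10 counts. The part of epidermal cells in the counts of young PBS 2 was not tested.

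The comparison of old rMETRNL with old PBS, which asks what the injected protein changed in old muscle, does not use young PBS 2. Krt10 stood at 3.03 ± 1.40 CPM (SD, n = 3) in old PBS and 3.04 ± 0.819 CPM in old rMETRNL. The groups overlapped, and edgeR's quasi-likelihood test gave a log2 fold change of 0.00050 (SE 0.39, adjusted p = 0.9997), with adjusted p between 0.821 and 0.9999 over all settings. Sfn stood at 2.45 ± 1.30 CPM in old PBS and 2.11 ± 0.169 CPM in old rMETRNL, with overlapping groups and a log2 fold change of -0.24 (SE 0.40, edgeR adjusted p = 0.897, range 0.643 to 0.9999). Without old PBS 3, the library with the highest Sfn count, the log2 fold change of Sfn was 0.29 (SE 0.36, edgeR adjusted p = 0.643). Of the 10 genes only these 2 passed edgeR's filter on low counts and 0 were called, compared with 0.108% of all genes tested (17 of 15682). At an unadjusted p under 0.05 the share over all genes was 8.07%, and neither Krt10 nor Sfn was among them. DESeq2 called neither.

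Lor was the gene of the 10 whose old groups did not overlap. Old PBS 2, 3 and 4 had 5, 10 and 9 counts and old rMETRNL 1, 2 and 3 had 1, 1 and 0. All 3 old rMETRNL libraries lay below all 3 old PBS libraries, as they did for 6.77% of the 20795 genes with at least 10 counts over the 6 libraries, and 6.45% lay the other way. The ratio of old PBS to old rMETRNL over the summed counts of 24 and 2 was 13.1 (exact counting interval 3.25 to 114). All 3 old rMETRNL libraries lay under the floor, so this is a ratio of counts and not a bound against the floor. Lor was too low for the filter. Without the filter it was not called by edgeR (adjusted p = 0.168), which then called 2.55% of 28995 genes and 2.01% as lower, or by DESeq2 (adjusted p = 0.255). Dsp, with 17 counts in old PBS and 22 in old rMETRNL, overlapped between the groups. The other 6 genes had fewer than 10 counts over these 6 libraries, which left a difference undetectable at this depth. In the 6 epidermal lists, 28 genes were tested in this comparison, 13 had a higher and 15 a lower fitted level in old rMETRNL, and 0 were called by edgeR, with 4 at an unadjusted p under 0.05. Their median log2 fold change was -0.09, beside -0.01 over all genes tested.

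The comparisons with young PBS, which ask what differs with age and with age plus rMETRNL, contain young PBS 2 and share the young libraries. The young mean of Krt10 was 17.4 ± 25.2 CPM (SD, n = 3), with 2.80 CPM as the mean of young PBS 1 and 3, and the SD exceeded the mean for 9 of the 10 genes, Sfn being the exception at 3.53 ± 1.14 CPM. The fitted log2 fold change of Krt10 was -2.52 (SE 1.05) in old PBS and -2.52 (SE 0.90) in old rMETRNL relative to young PBS, and that of Sfn was -0.51 (SE 0.43) and -0.74 (SE 0.29). These values describe the library that chose the genes and carry no test. Without young PBS 2 the log2 fold change of Krt10 was 0.10 (SE 0.48, edgeR adjusted p = 0.9998) in old PBS and 0.12 (SE 0.35, adjusted p = 0.9999) in old rMETRNL. For Sfn the values without young PBS 2 were -0.24 (SE 0.49, edgeR adjusted p = 0.9998) and -0.46 (SE 0.31, adjusted p = 0.9999).

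**Figure D4:**
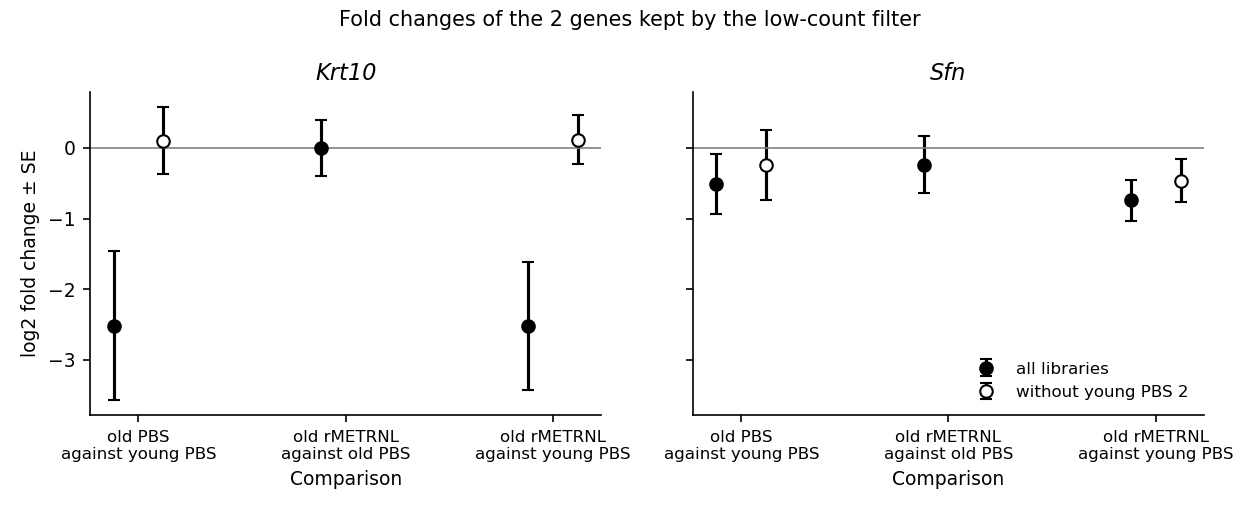
Fitted log2 fold changes (vertical axis, error bars are standard errors) of Krt10 (left) and Sfn (right) in the 3 comparisons (horizontal axis), with all libraries as filled points and without young PBS 2 as open points. Krt10 moves from -2.52 to 0.10 in old PBS and from -2.52 to 0.12 in old rMETRNL against young PBS once young PBS 2 is left out.

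Neither gene was called by edgeR in the fits without young PBS 2. Over all genes, edgeR called 0.0643% in old PBS against young PBS (10 of 15560) and 0.0123% without young PBS 2 (2 of 16236). In old rMETRNL against young PBS it called 0 of 15396 with young PBS 2 (0.0%) and 0 of 15798 without it. In that comparison 371 genes with young PBS 2 (2.41%) and 286 without (1.81%) had an unadjusted p under 0.05, and DESeq2 with all 6 libraries called 0. In old PBS against young PBS the unadjusted shares were 5.91% and 5.16%. Without young PBS 2, 31 genes of the 6 epidermal lists were tested in old PBS against young PBS, of which 22 had a higher and 9 a lower fitted level in old PBS and 0 were called by edgeR, with 4 at an unadjusted p under 0.05. Their median log2 fold change was 0.15, beside 0.01 over all genes tested.

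The filter on low counts decided whether the 10 genes entered the young comparisons at all. It kept Krt10 and Sfn, and of the 61 genes that stood apart in young PBS 2 it kept 4 in old PBS against young PBS and 5 in old rMETRNL against young PBS. Without the filter, edgeR called 8 of the 10 genes in old PBS against young PBS, all as lower with age, beside 0.219% of all genes in that direction (63 of 28821) and 1.23% in either. In old rMETRNL against young PBS it called 9 of the 10 as lower, beside 0.325% in that direction (92 of 28282) and 0.467% in either. These calls use the counts of young PBS 2, which the rule used, and nothing is read from them about age or treatment. Of the 63 genes called lower in old PBS, 23 were among the 61 genes that stood apart in young PBS 2, which is 36.5% of the calls and 37.7% of the 61. Of the 92 called lower in old rMETRNL, 45 were among them, 48.9% of the calls and 73.8% of the 61. DESeq2 set no p-value for 9 of the 10 genes in either young comparison, as its Cook's distance rule withholds the p-value of a gene with 1 extreme count.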

How the data were processed

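RNA of injured tibialis anterior muscle was sequenced in 9 libraries, 3 for each of the 3 groups. The deposited values are raw read counts for each Ensembl gene and library, which the authors had not normalized or pooled. The submitters' processing notes name STAR, featureCounts and the build mm9, while the gene identifiers match an annotation of GRCm38 (54495 of 54532), which gave the coordinates used here. Symbols were found for 54409 genes.

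For each pair of groups, the 6 libraries were fitted in edgeR 4.0.16 under R 4.3.3 (filterByExpr, TMM, quasi-likelihood test, Benjamini-Hochberg over all genes tested, threshold 0.05). The SE of a log2 fold change is its size divided by the root of its F statistic. DESeq2 1.42.0, other scalings, no filter, all 9 libraries together, a block for the replicate number and leaving out each library in turn were the alternatives. Data of 15396 genes, the number that passed the filter, were simulated for old rMETRNL against young PBS, with 200 genes changed 4-fold. Of these 200 genes, edgeR called 197 with 12 false calls and DESeq2 192 with 18. The simulation gives no power for genes that the filter removed, for smaller changes or for the comparisons with old PBS. Its counts were drawn with the same dispersion, a measure of the spread between libraries, for every gene. The spread of single genes was therefore not modelled, and the recovery holds for that setting only.

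The 10 genes and all lists were chosen with earlier results of these data known. Genes named are these 10, in each list up to 4 genes with the most counts over the 9 libraries, and the 15 other genes with at least 20 counts and the highest ratio of young PBS 2 to the highest other library, the others taken at no less than 3 counts. Names outside this rule (close relatives of the 10 genes, list genes at or near 0, Col17a1, Elovl4, Krt23, Cldn4, Myh2 and Awat1) were chosen after their values were seen. Krt85 and Trgv5 were not matched in the table. The labels give no batch or date.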

Additional observations from a re-analysis of the deposited data

How the results depend on the processing

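The summed level of the 10 genes in young PBS 2 over the highest other library was 21.5 with plain library size in place of 25.02 with TMM, and with at least 50 counts required the genes 4-fold above every other library fell from 61 to 31. Counts of genes called depended on the setting. In old PBS against young PBS, 10 became 354 without a filter on low counts, 265 with DESeq2's Wald test, 63 with all 9 libraries in 1 fit and 2 to 401 with each library left out, 401 without old PBS 3. In old rMETRNL against old PBS, 17 became 740, 357 and 71 under the same settings and 3 to 1560 with each library left out, 1560 without old PBS 3. In old rMETRNL against young PBS, 0 became 132 without the filter and 0 to 1 with each library left out. Without the filter 8 and 9 of the 10 genes were called in the young comparisons, beside 1.23% and 0.467% of all genes. These calls use the counts of young PBS 2 that chose the genes, so nothing is read from them. The log2 fold change of Krt10 in old rMETRNL against old PBS was -0.013 with DESeq2's size factors, -0.0080 with its Wald test and -0.24 to 0.40 with each library left out, and that of Sfn -0.49 to 0.29, so neither has a direction. Krt10 ran from -3.05 to 0.10 in old PBS and from -3.05 to 0.12 in old rMETRNL against young PBS, positive without young PBS 2. With a replicate block 65 genes were called in old rMETRNL against old PBS, none of them among the 10 genes. The block gave 11 calls in old PBS against young PBS and 0 in old rMETRNL against young PBS. The deviations of libraries of the same number correlated at r from -0.32 to 0.41, highest between young PBS 3 and old PBS 3. Not every library correlated best with a library of its own number, and these values cannot tell whether the number marks a shared batch. At 16238700 or more counts per library, a gene at 0 may lie at up to 0.202 CPM, and 8 of the 10 genes were too low for the filter.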
